A study of Rattus norvegicus with 10 samples.

Results

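Transforming growth factor beta (TGF-beta) genes were compared between bone-derived cells of the skull and of the limb of the same rats. The set was a list of 9 genes, made up of the ligands Tgfb1, Tgfb2 and Tgfb3, the receptors Tgfbr1, Tgfbr2 and Tgfbr3, the latent TGF-beta binding protein genes Ltbp1 and Ltbp2, and the TGF-beta-induced matrix gene Tgfbi. Members were the array probes that the platform annotation assigns to a listed symbol. 8 of the 9 genes were found, out of 13336 named genes on the array, each with 1 probe, and Tgfbr2 was not analysed here. Cells were grown from the calvaria, the skull vault (S-Bdc), and from the cortex of the ulna, a forelimb bone (L-Bdc), of 5 male adult CD rats, which gave 5 matched pairs. No culture was treated. Third-digest cells of the minced bones were grown in medium with newborn calf serum and taken at passage 3 and 95% confluence, and total RNA of each culture was read on 1 Illumina rat BeadChip array.

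TGF-beta ligands are secreted in a latent form, in which the ligand stays bound to its own propeptide and, through it, to a latent TGF-beta binding protein that anchors the complex in the matrix. Once freed, the ligand brings together the type II and type I receptors, and the type I receptor, Tgfbr1, phosphorylates SMAD2 and SMAD3. In bone, TGF-beta is stored in the matrix, is released when bone is resorbed, and acts on the recruitment and differentiation of osteoblasts.

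Arrays had similar brightness, with a median raw signal of 40.6 to 48.1 units for the calvarial and 42.9 to 47.1 for the ulnar cultures. Arrays of the same site correlated at 0.9896 to 0.9948 across probes, arrays of different sites at 0.9815 to 0.9875, and no 2 arrays were identical. Of the 7 osteoblast markers measured, the collagen genes Col1a1 and Col1a2, osteopontin (Spp1), Alpl and Ibsp were above background on all 10 arrays. Sp7, a transcription factor of osteoblasts, was above it on 2 S-Bdc arrays and 1 L-Bdc array, and osteocalcin (Bglap) on 3 and 1. Spp1 was lower in S-Bdc (-1.81 ± 0.12, SE, limma adjusted p = 3.13e-05), and Col1a1 was higher. On this normalised log2 scale Spp1 differed more than any of the 8 TGF-beta genes. In processed intensity it was 3.44-fold higher in L-Bdc, less than Tgfbi at 4.85-fold. The summed processed intensity of the osteoblast list was 19535 to 21243 units for the calvarial against 24889 to 28051 for the ulnar cultures. In it Spp1 averaged 3134 units in S-Bdc against 10797 in L-Bdc, and Col1a1 went the other way, at 5486 against 3634. The sum therefore gives no direction for the list as a whole.

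Among markers of other cells, none of the 5 osteoclast and monocyte markers measured was called. Calcr, Ptprc and Tyrobp were within background on all 10 arrays and Itgam was above it on 2 L-Bdc arrays, but Cd14 was above it on all 10, at a mean of 348 units in the calvarial and 397 in the ulnar cultures. Of 4 endothelial markers, 0 were called, with Cdh5 and Vwf within background on all arrays and Tie1 above it on all 10, at 15.5 and 14.2 units. Of 5 adipocyte markers, 0 were called, with Adipoq and Lep within background, and Fabp4 and Cfd above it on all 10 arrays (Cfd 0.70 ± 0.21, limma adjusted p = 0.0761). Of 3 pericyte markers, Cspg4 was lower in S-Bdc (-0.35 ± 0.056, limma adjusted p = 0.00367), Abcc9 was higher (0.23 ± 0.062, 0.0467) and Rgs5 was within background. The list's sum was 110 to 135 units against 145 to 198 for L-Bdc. In it Cspg4 averaged 111 units in S-Bdc against 159 in L-Bdc, and Abcc9 went the other way, at 13.7 against 2.3. This sum too gives no direction for its list as a whole. Of 5 neuronal markers, 1, Tubb3, was lower (-0.27 ± 0.07, limma adjusted p = 0.044). Of 6 muscle markers 0 were called, and their sum was 17.9 to 37.4 units for the calvarial and 39.3 to 87.9 for the ulnar cultures. These values lay near background. Myog, Actn2 and Ckm were within it on all 10 arrays. Myod1 was above it on 1 S-Bdc array and 2 L-Bdc arrays, Acta1 on 2 and 3, and Des on all 10. The 3 measured tendon and fibroblast markers (Tnmd, Dpt and Pdgfra) were all higher in S-Bdc, with a summed processed intensity of 1127 to 1971 units in the calvarial cultures against 677 to 1033 units in the ulnar cultures. 8 of 10 measured proliferation genes were lower in S-Bdc and 0 higher, with sums of 3470 to 6133 units against 7119 to 8512 units in L-Bdc. Beside each of these counts, 4.68% of all probes were called lower and 4.43% higher in S-Bdc. The part of these lists in the results that follow was not tested. In bulk RNA, fewer cells of a type and less RNA per cell cannot be told apart.

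Less signal was found in S-Bdc for 5 of the 8 genes (the ligands Tgfb1, Tgfb2 and Tgfb3, and Ltbp2 and Tgfbi), more for 2 (Ltbp1 and Tgfbr3), and 1, Tgfbr1, was not called. Calls were made at an adjusted p of 0.05 in a limma fit over all 22517 probes with rat as a block. In that fit 9.10% of probes were called in either direction, 4.68% lower and 4.43% higher in S-Bdc. The share was larger, 16.7%, in a fit to only the 12736 probes above background on at least 3 arrays (8.61% lower and 8.12% higher). There too 5 of the 8 genes were called lower and 2 higher. The median log2 difference, S-Bdc minus L-Bdc, was -0.68 over the 8 genes and -0.0015 over all probes. The values of both sites did not overlap for 3 of the 8 genes, against 7.00% of all probes, and for 6 of the 8 every pair had the same sign, against 16.9% of all probes. All 8 were above background on all 10 arrays. Tgfbi is a gene the study singled out on these arrays, so its difference is not independent evidence. The study also measured Tgfbi by qRT-PCR in bone-derived cells, and reports it lower in skull cells by both methods. Each value below is a normalised log2 signal unless a processed intensity, the deposited linear value, is named.

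**Figure D1:**
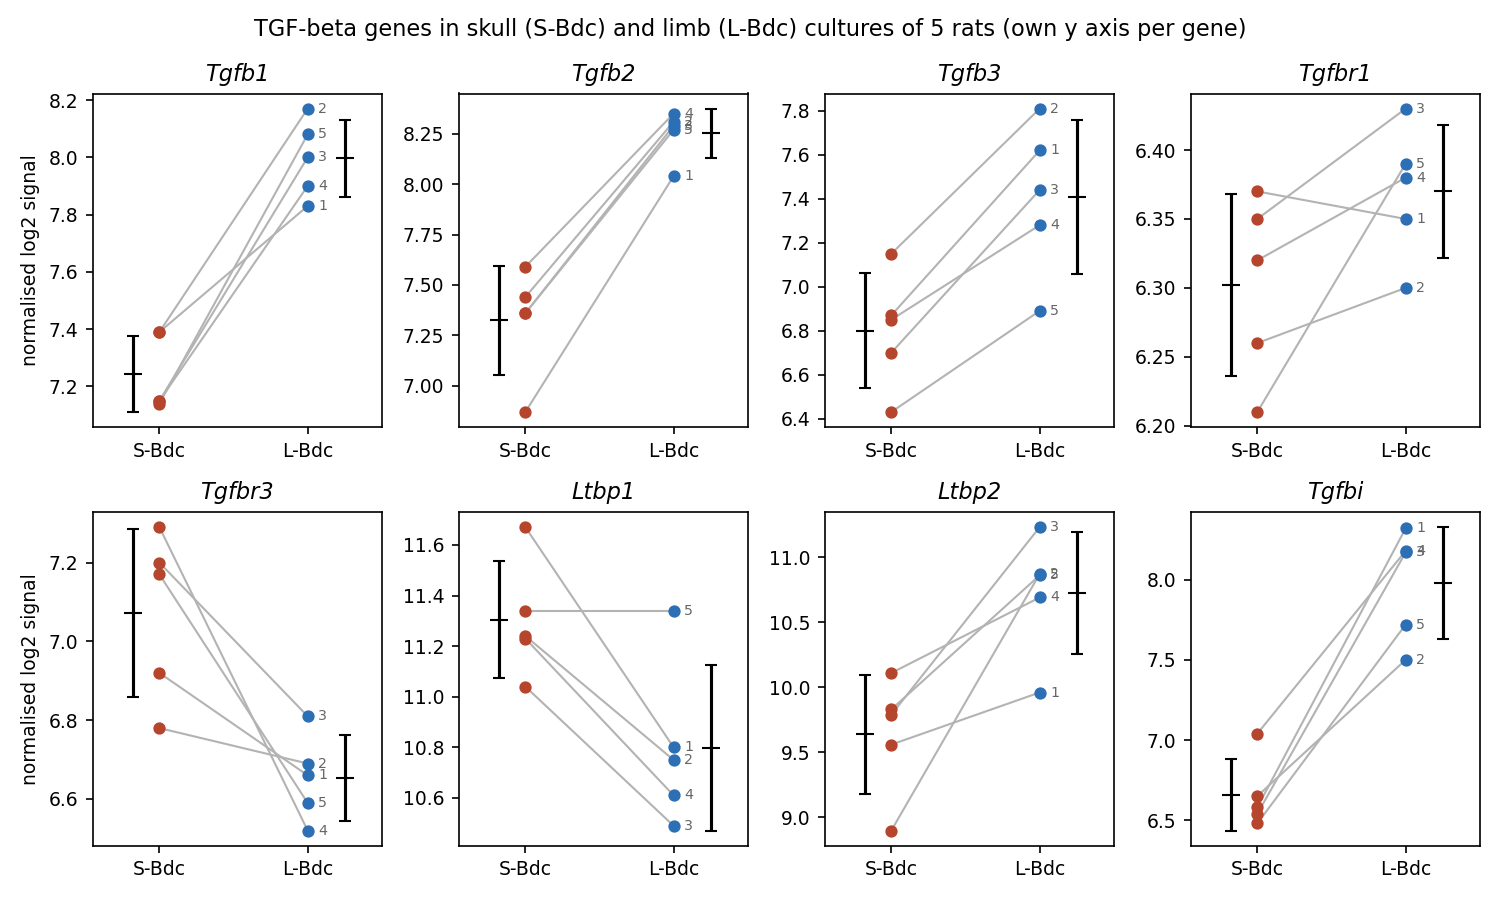
Normalised log2 signal (y axis, own scale for each gene) of the 8 TGF-beta genes in S-Bdc (red) and L-Bdc (blue), 1 point a culture, with grey lines that join the cultures of 1 rat, rat numbers at the right, and bars for the mean and SD of the 5 cultures. All lines rise towards L-Bdc for Tgfb1, Tgfb2, Tgfb3, Ltbp2 and Tgfbi, all fall for Tgfbr3, and for Ltbp1 the line of rat 5 is flat at 11.34.

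Each of the 3 ligands had less signal in the calvarial culture than in the ulnar culture of the same animal, in every rat. Tgfb1, the most studied ligand and the main form stored in bone (probe ILMN_1356448), read 7.39, 7.39, 7.15, 7.15 and 7.14 in S-Bdc of rats 1 to 5, and 7.83, 8.17, 8.00, 7.90 and 8.08 in L-Bdc. The highest S-Bdc culture was below the lowest L-Bdc culture. The difference was -0.75 ± 0.07 (SE, n = 5 pairs, as for all differences that follow; limma adjusted p = 2.01e-04), and was smallest in rat 1 at -0.44, against -0.75 to -0.94 in the other rats. In the deposited processed intensities, which carry no offset, the means were 91.4 ± 14.1 units (SD, n = 5) for S-Bdc against 196 ± 24.5 for L-Bdc, 2.15-fold higher in L-Bdc.

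Tgfb2 (probe ILMN_1373682), a ligand needed in mice for normal skull, limb and heart development, had the largest difference of the ligands. It read 6.87, 7.44, 7.36, 7.59 and 7.36 in S-Bdc of rats 1 to 5, and 8.04, 8.31, 8.29, 8.35 and 8.27 in L-Bdc. The sites were again apart, and rat 1 was the lowest culture of each site. The difference was -0.93 ± 0.062 (limma adjusted p = 3.54e-05), from -0.76 in rat 4 to -1.17 in rat 1, and the processed means were 102 ± 27.8 and 246 ± 24.8 units, 2.42-fold higher in L-Bdc.

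Tgfb3 (probe ILMN_1352414), whose loss causes cleft palate in mice, read 6.87, 7.15, 6.70, 6.85 and 6.43 in S-Bdc of rats 1 to 5, and 7.62, 7.81, 7.44, 7.28 and 6.89 in L-Bdc. Its sites overlapped, since L-Bdc of rat 5 was below S-Bdc of rat 2, but the order of the rats was much alike at both sites and the paired difference was even. It was -0.60 ± 0.063 (limma adjusted p = 3.68e-04), from -0.43 in rat 4 to -0.75 in rat 1. The processed means were 52 ± 20.5 and 113 ± 40.7 units, 2.17-fold higher in L-Bdc. With each pair's sign exchanged, the difference of each ligand in log2 processed intensity (floor 16 units) had an exact permutation p = 0.063 (two-sided). This is the smallest that 5 pairs allow.

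The promoters of the ligands are shown by Tgfb2, the ligand with the largest difference, in the RefSeq window from 250 bases before to 50 after the gene start (GRCr8, chr13:100792636-100792935, minus strand, written 5′ to 3′ on the gene's strand).
Tgfb2: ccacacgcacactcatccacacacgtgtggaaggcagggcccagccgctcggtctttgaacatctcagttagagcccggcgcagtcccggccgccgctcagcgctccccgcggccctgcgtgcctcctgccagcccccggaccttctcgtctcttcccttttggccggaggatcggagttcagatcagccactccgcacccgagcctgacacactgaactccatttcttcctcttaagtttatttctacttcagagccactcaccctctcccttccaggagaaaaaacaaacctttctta
The windows were searched on both strands for CAGAC (the core of the SMAD box), GTCTAGAC (the SMAD palindrome), TGANTCA (the AP-1 site), GGGCGG (the GC box) and TATAAA (the TATA box), and matches are in capitals in every promoter printed here. No match stood in the windows of Tgfb1, Tgfb2 or Tgfb3, so the window above has no capitals. Of all 33469 rat promoter windows, 50.1% held CAGAC, 33.1% GGGCGG, 14.2% TATAAA, 7.33% TGANTCA and 0.197% GTCTAGAC. Over the 8 genes, 2 windows held CAGAC, 4 held GGGCGG and 0 held each of the other motifs.

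Of the receptor genes, 1 was higher in S-Bdc and 1 was not called. Tgfbr1, the type I receptor kinase (probe ILMN_2039256), read 6.37, 6.26, 6.35, 6.32 and 6.21 in S-Bdc of rats 1 to 5, and 6.35, 6.30, 6.43, 6.38 and 6.39 in L-Bdc. The sites overlapped and S-Bdc was lower in 4 of 5 pairs. The difference of -0.069 ± 0.049 was not called (limma adjusted p = 0.561), with a 95% interval of -0.18 to 0.041. Its processed means were dim, at 17.7 ± 3.54 and 21.5 ± 2.9 units against a background limit of 8.51, where the offset of 50 makes log2 differences smaller.

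Tgfbr3, or betaglycan, a co-receptor that presents TGF-beta 2 to the type II receptor (probe ILMN_1354031), was higher in S-Bdc. It read 6.92, 6.78, 7.20, 7.29 and 7.17 in S-Bdc of rats 1 to 5, and 6.66, 6.69, 6.81, 6.52 and 6.59 in L-Bdc. S-Bdc was the higher culture in all 5 pairs, but L-Bdc of rat 3 was above S-Bdc of rat 2. The difference was 0.42 ± 0.089 (limma adjusted p = 0.0163), from 0.10 in rat 2 to 0.77 in rat 4, and the processed means were 74.9 ± 19.5 and 39.8 ± 7.7 units, 1.88-fold higher in S-Bdc. The call was lost without rat 3, 4 or 5 (adjusted p = 0.0612, 0.0578 and 0.0626).

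The latent binding protein genes went in opposite directions. Ltbp1, which ties latent TGF-beta to fibrillin in the matrix (probe ILMN_1363431), read 11.67, 11.24, 11.04, 11.23 and 11.34 in S-Bdc of rats 1 to 5, and 10.80, 10.75, 10.49, 10.61 and 11.34 in L-Bdc. Rats 1 to 4 were higher in S-Bdc by 0.49 to 0.86, and rat 5 was equal at both sites. The difference was 0.50 ± 0.10 (limma adjusted p = 0.013), and the processed means were 2510 ± 433 and 1774 ± 459 units, 1.42-fold higher in S-Bdc. The call was lost without rat 3 or 4 (adjusted p = 0.0607 and 0.0654) and without the block for rat (0.0512).

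Ltbp2, a family member that binds fibrillin but is not known to bind latent TGF-beta (probe ILMN_1361640), was lower in S-Bdc. It read 9.56, 8.90, 9.79, 10.11 and 9.83 in S-Bdc of rats 1 to 5, and 9.96, 10.87, 11.23, 10.69 and 10.86 in L-Bdc. L-Bdc was the higher culture in every rat, and the sites overlapped only through L-Bdc of rat 1, below S-Bdc of rat 4. The difference was -1.09 ± 0.19 (limma adjusted p = 0.00635), and it was the most uneven of the 8 genes, from -0.40 in rat 1 to -1.97 in rat 2. The processed means were 770 ± 232 and 1706 ± 512 units, 2.22-fold higher in L-Bdc. The site difference of Ltbp1 exceeded that of Ltbp2 in all 5 rats, by 1.59 ± 0.27 on the log2 scale (exact permutation of signs, two-sided p = 0.063, the smallest that 5 pairs allow).

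The promoters of this pair are printed because the genes differ in direction (GRCr8, Ltbp1 at chr6:26177252-26177551, minus strand, and Ltbp2 at chr6:110257249-110257548, minus strand).
Ltbp1: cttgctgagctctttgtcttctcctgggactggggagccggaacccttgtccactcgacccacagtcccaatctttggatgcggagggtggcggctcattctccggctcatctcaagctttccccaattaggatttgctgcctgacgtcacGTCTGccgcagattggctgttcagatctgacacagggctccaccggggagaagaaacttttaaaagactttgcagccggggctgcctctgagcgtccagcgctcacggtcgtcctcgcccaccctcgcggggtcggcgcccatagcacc
Ltbp2: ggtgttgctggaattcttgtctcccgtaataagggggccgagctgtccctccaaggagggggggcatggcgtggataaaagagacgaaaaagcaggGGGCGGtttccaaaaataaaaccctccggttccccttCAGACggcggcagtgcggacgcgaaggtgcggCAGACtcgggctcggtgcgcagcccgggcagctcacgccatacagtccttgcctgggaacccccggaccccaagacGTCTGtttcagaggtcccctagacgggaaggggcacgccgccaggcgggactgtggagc
The Ltbp1 window held 1 match to CAGAC, at -99 from the start site, and the Ltbp2 window held 3, at -117, -85 and -9, and 1 match to GGGCGG at -154. Matches are a description of the letters.

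Tgfbi, a secreted matrix protein that is induced by TGF-beta and binds integrins and collagens (probe ILMN_1371070), had the largest difference of the 8 genes. It read 6.58, 6.65, 6.54, 7.04 and 6.48 in S-Bdc of rats 1 to 5, and 8.32, 7.50, 8.17, 8.18 and 7.72 in L-Bdc. No S-Bdc culture reached the lowest L-Bdc culture, and 4 of the 5 S-Bdc cultures lay within 6.48 to 6.65. The difference was -1.32 ± 0.12 (limma adjusted p = 1.39e-04), from -0.85 in rat 2 to -1.75 in rat 1. The processed means were 40.9 ± 17.1 and 198 ± 59.3 units, 4.85-fold higher in L-Bdc. Among the 13336 named genes, Tgfbi had the 21st lowest difference of normalised log2 signal, Ltbp2 the 26th, Tgfb2 the 45th, Tgfb1 the 90th and Tgfb3 the 170th. The offset makes differences of dim genes smaller on this scale. In processed intensity Tgfb2 (2.42-fold higher in L-Bdc) differed more than the brighter Ltbp2 (2.22-fold). The Tgfbi promoter is printed as that of the gene with the largest difference (GRCr8, chr17:7990064-7990363, minus strand).
Tgfbi: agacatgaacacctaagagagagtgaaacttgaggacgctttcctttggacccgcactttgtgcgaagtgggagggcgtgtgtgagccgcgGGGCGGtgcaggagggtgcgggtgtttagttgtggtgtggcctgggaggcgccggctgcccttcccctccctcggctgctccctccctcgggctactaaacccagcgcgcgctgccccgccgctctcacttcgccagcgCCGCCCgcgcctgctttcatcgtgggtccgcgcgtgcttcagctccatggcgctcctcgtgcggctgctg
Its window held 2 matches to GGGCGG, at -159 and -20, and 66.7% of its bases were G or C, against a median of 51.7% over all windows.

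**Figure D2:**
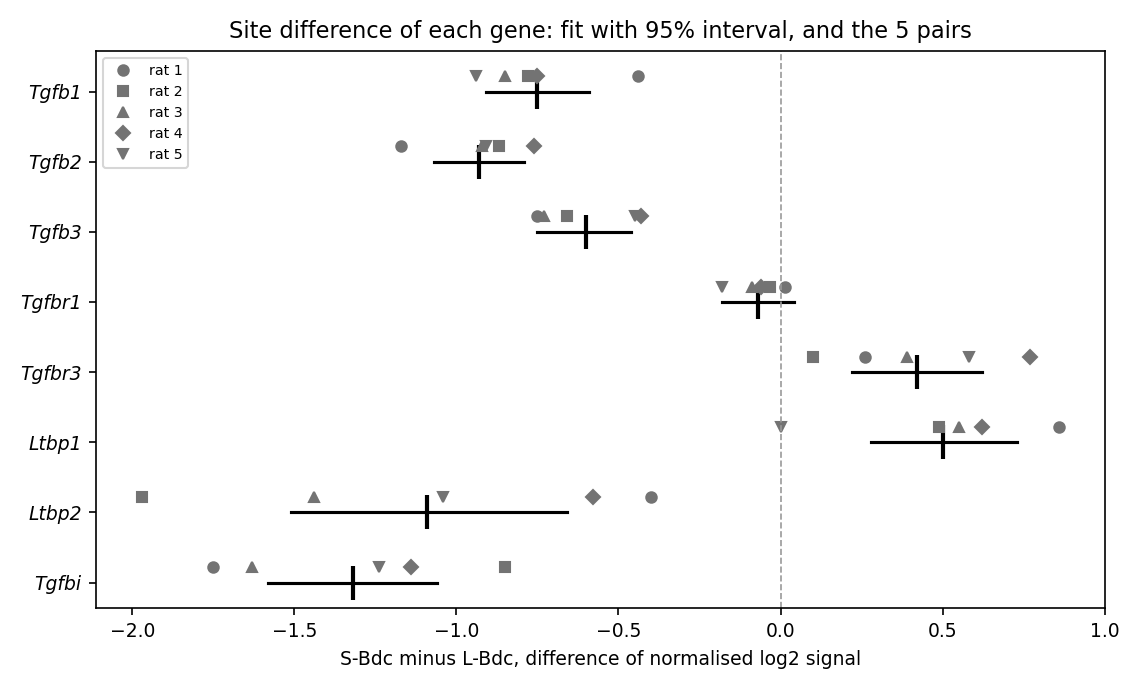
S-Bdc minus L-Bdc difference of normalised log2 signal (x axis) for each gene, with the fitted value (tick), its 95% interval (line) and the difference in each rat (symbols). The intervals of 7 genes lie to 1 side of 0, and that of Tgfbr1 spans it, from -0.18 to 0.041.

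Within a site, the 8 genes did not rise and fall together from culture to culture. With the site means removed, Pearson's r over the 10 arrays was above 0 for 11 of 28 pairs of genes, with a median of -0.06. The highest was 0.71, between Tgfbr3 and Ltbp2, which differ between sites in opposite directions. The lowest was -0.64, between Tgfb1 and Tgfbi, which were both lower in S-Bdc. The genes whose deviations were most like those of Tgfbi, among 8737 named genes above background on at least 3 arrays, were Sult5a1 (r = 0.93), Pbx4 (0.93), Acp2, a lysosomal phosphatase gene (0.91), Tox3 (0.88) and Wnt9b, a Wnt ligand gene (0.88). Of these, Tox3 alone was called between sites (-0.28 ± 0.069, limma adjusted p = 0.0316). The points share arrays and rats, and these values are descriptions.

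The further genes listed around TGF-beta signalling showed no common direction. Of 66 measured in 5 lists, some in 2 lists, 9 were higher and 8 lower in S-Bdc, with a median difference of -0.041. The lists mix activators with traps and inhibitors, and the binding partners of Tgfbi are among them. In the same fit 9.10% of all probes, and 11.9% of named genes at 1 probe a gene, were called in either direction. Of probes above background on at least 3 arrays, fitted alone, 16.7% were called. Of 28 measured TGF-beta target genes, 3 were higher, 5 lower and 20 not called, with a median of -0.03. Pmepa1, a target that feeds back on SMAD signalling, was lower (12.24 ± 0.11 against 12.95 ± 0.10 in L-Bdc, SD, n = 5, a difference of -0.71 ± 0.068, limma adjusted p = 2.28e-04). Of the fibrillar collagen genes in this list, Col1a1 (0.58 ± 0.061) and Col3a1 (0.63 ± 0.076) were higher, each with no overlap of the sites. Col1a2, named here after its values were seen, was not called (-0.014 ± 0.054, limma adjusted p = 0.947). It was lower in S-Bdc in 4 of 5 pairs, but its largest pair difference, 0.16, was in the other direction. Col1a2 thus did not share the difference of Col1a1 and Col3a1, and no direction is read for it.

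The other called target genes, named after their values were seen, were the cell cycle inhibitor gene Cdkn1a, higher in S-Bdc (0.47 ± 0.07), and Id1 (-0.78 ± 0.13), Ccn1 (-0.67 ± 0.16), the tropomyosin gene Tpm1 (-0.59 ± 0.10) and Smad7 (-0.36 ± 0.061), all lower. Ccn2, or connective tissue growth factor, a classical TGF-beta target, read 13.22 at both sites (SD 0.18 for S-Bdc, 0.093 for L-Bdc) and was not called (limma adjusted p = 1; 95% interval -0.13 to 0.13). It was likewise named after its values were seen.

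Of 11 SMAD transducers and regulators measured, 1 was lower and 0 higher (median 0.018), a share near that over all probes. That gene was Smad7, the inhibitory SMAD that is itself a target of the pathway, at 6.60 ± 0.094 against 6.96 ± 0.16 in L-Bdc, with no overlap (limma adjusted p = 0.00509). Smad3 was within background on all 10 arrays.

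Of 12 genes of latency and activation, 1 was higher and 2 lower (median -0.12). Over all probes 4.43% were higher and 4.68% lower, and 11.9% of named genes were called in either direction. The fibrillin genes, which code for microfibrils that hold latent complexes, differed from each other, with Fbn1 higher in S-Bdc (0.56 ± 0.094, limma adjusted p = 0.00471) and Fbn2 lower (-0.33 ± 0.068, 0.0147). Of 13 alternatives, 3 did not call Fbn1 and 6 did not call Fbn2, among them those without rat 3 and without rat 4. The gelatinase gene Mmp9 was lower (-0.20 ± 0.054, 0.0493), and 9 of 13 alternatives did not call it. Of 11 accessory receptors and traps, 4 were higher and 1 lower (median 0.074), against the same 4.43% and 4.68% of all probes. The higher genes included asporin, Aspn (0.88 ± 0.055, limma adjusted p = 2.41e-05), and fibromodulin, Fmod (1.36 ± 0.21, 0.00274), leucine-rich proteoglycans that bind TGF-beta. Of other proteoglycans of this kind, Dcn (0.074 ± 0.10, limma adjusted p = 0.812) and Bgn (-0.31 ± 0.11, 0.146), named after their values were seen, were not called. Also higher was Zfyve9, or SARA, which brings SMADs to the receptor (0.39 ± 0.081, limma adjusted p = 0.0144). Zfyve9 was not called in 6 of 13 alternatives, those without rat 3 or rat 4 among them.

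Of 10 measured binding partners of Tgfbi, 1, the collagen VI gene Col6a1, was higher in S-Bdc (0.73 ± 0.12, limma adjusted p = 0.00489) and 0 were lower (median -0.10), again near the share over all probes. Without the block for rat it was not called (adjusted p = 0.103). In the proliferation list, whose median was -0.69, the 3 genes with the lowest adjusted p were Plk1 (-0.81 ± 0.064), Cdc6 (-0.72 ± 0.077) and Mcm3 (-0.82 ± 0.10).

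**Figure D3:**
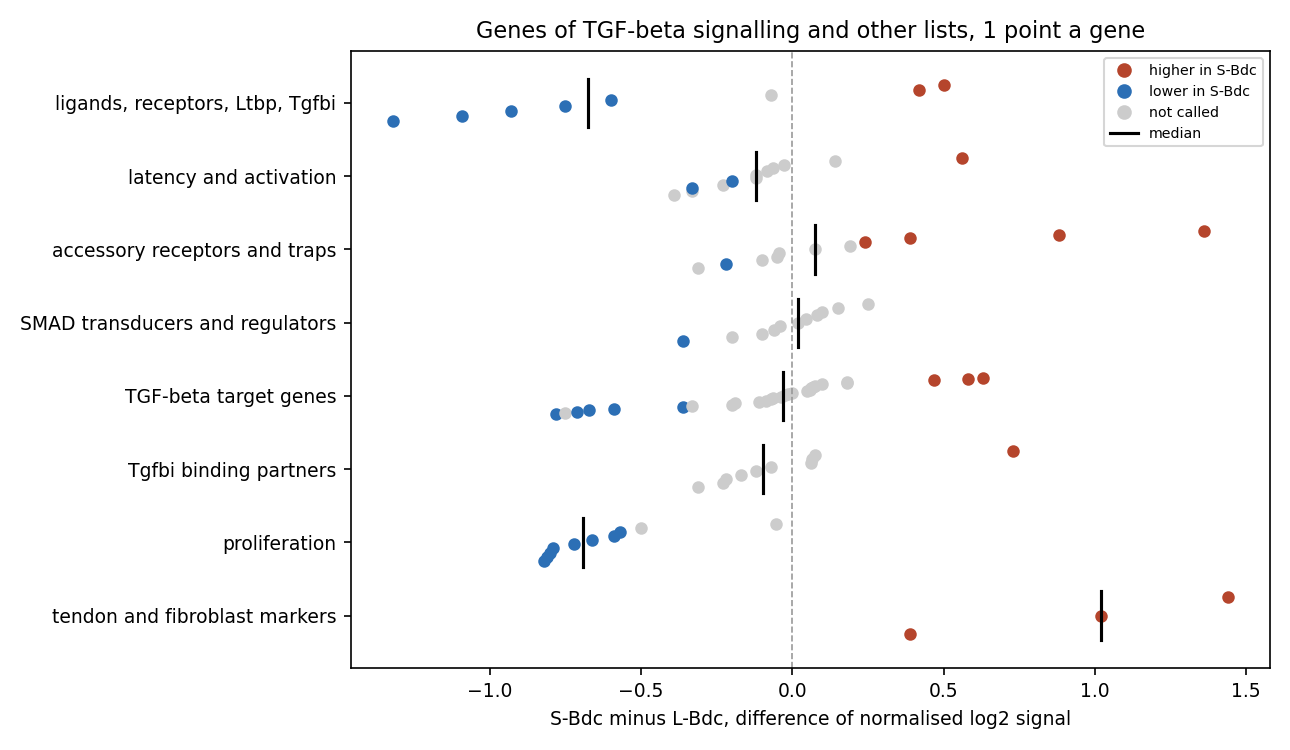
S-Bdc minus L-Bdc difference of normalised log2 signal (x axis) for the genes of each list (rows), 1 point a gene, coloured where called (red higher, blue lower in S-Bdc) and grey where not, with a black bar at the list's median. The 8 TGF-beta genes have a median of -0.68 and the TGF-beta target genes of -0.03.

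The directions of the 8 genes did not depend on the processing, whereas the calls did. In the deposited processed intensities, where 0.906% of all probes were called (0.542% higher and 0.364% lower in S-Bdc), 1 of the 8 genes, Tgfb3, was called. Without normalisation between arrays, 4 were called lower and 0 higher, against 3.86% of probes (2.28% higher and 1.59% lower). Ltbp1 was not called with median scaling (6 of 8 genes called, against 6.23% of probes) or without the block for rat (6 of 8, against 8.50%). The methods' paired t-test, named there as a general test and not for these arrays, called 7 of the 8 genes at an unadjusted p of 0.05, against 15.7% of probes, and 0 after adjustment, against 0.0133%. At an unadjusted p of 0.05 in the limma fit, 7 of the 8 were called, against 18.8% of probes.

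**Figure D4:**
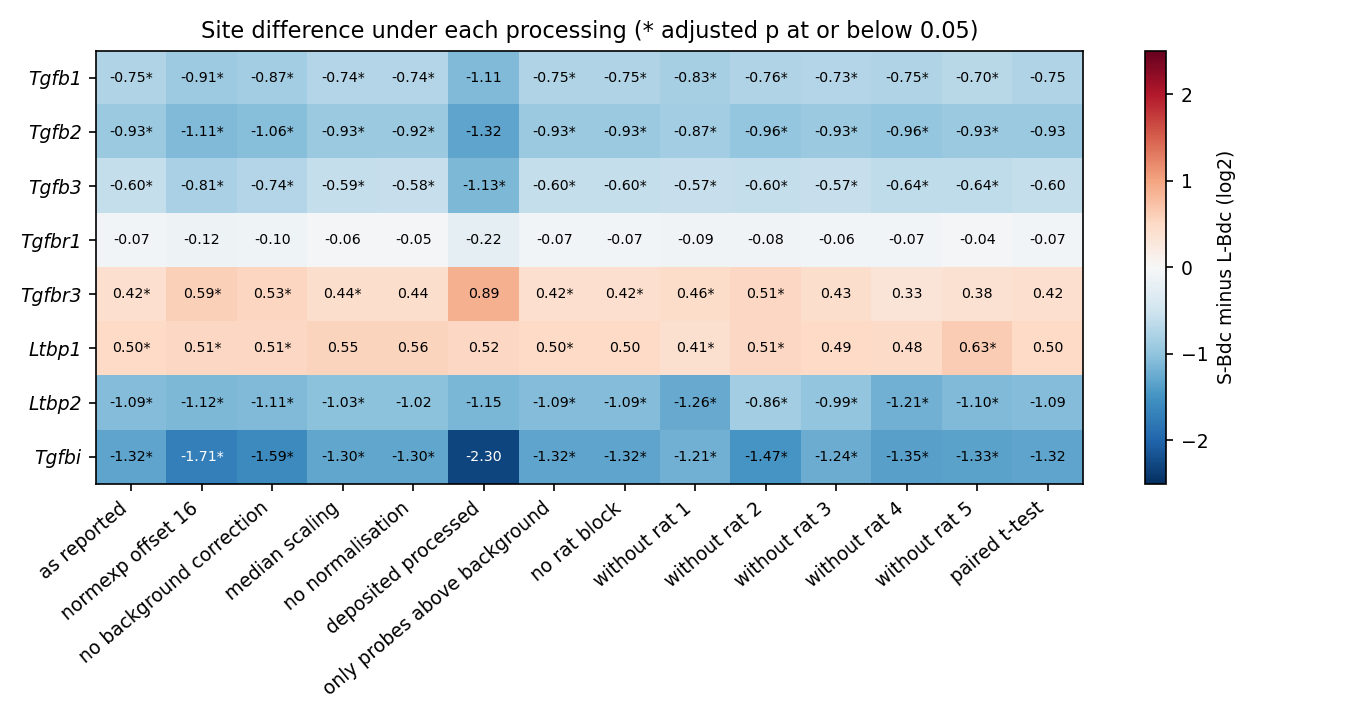
S-Bdc minus L-Bdc log2 difference of each gene (rows) under each processing (columns), with the value in each cell, a colour scale from blue (lower in S-Bdc) to red (higher), and a star where the adjusted p was at or below 0.05. No gene changes direction, and Tgfbi ranges from -2.30 in the deposited processed intensities to -1.21 without rat 1.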

How the data were processed

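The authors deposited a raw intensity for each probe, the linear mean over its beads exported from BeadStudio, and processed intensities of the same arrays that appear, from the values, to be background subtracted and quantile normalised, by steps that are not given in the sources used here. Both tables carried different identifiers, so probes were paired by the likeness of their ranks over the 10 arrays. A mutual best partner was found for all 22517 raw probes (greatest distance in rank 0.264%), and every gene name depends on this pairing and the platform annotation. 6 processed rows had no raw partner and were left out.

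Background was corrected with normexp (offset 50), and quantile-normalised log2 signals were fitted with rat and site in limma 3.58.1 (R 4.3.3), with Benjamini-Hochberg adjustment over all probes. For these arrays the study's methods name a BeadStudio difference score, which was not used here. The paired t-test, which they give as the general test, was run per probe as an alternative. For dim genes the offset makes differences smaller. The background limit of 8.51 processed units is the 95th percentile of the mirrored values at or below 0. For fits and permutation tests, processed intensities below 16 units were raised to 16 and put on the log2 scale. The number of arrays limits the precision. The pairing comes from the labels, which name the rat. Both cultures of a rat, less their site means, correlated at 0.06, 0.211, 0.25, 0.176 and 0.129 in rats 1 to 5. The calvarial culture of rat 1 correlated best with the ulnar culture of rat 5 (0.284), and each other calvarial culture with that of its own rat. The pipeline was tested on simulated data.

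Named genes were the 8 measured members, from each pathway list up to 3 called genes with the lowest adjusted p, and the 5 genes most like Tgfbi. Members and lists were chosen with earlier results of these data known. A comparison of ligand proteins that had been planned was not made.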

Additional observations from a re-analysis of the deposited data

Results flagged for a closer look

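In L-Bdc, Tgfb2 of rat 1 stood apart from the other cultures of its site, at a normalised log2 signal of 8.04 against 8.27 to 8.35, a gap of 0.76 of the group's range where 0.71 is the limit. It was the 1 such gap in 44 groups of 5 cultures (22 genes at both sites), and chance gives about 1 in 20 groups. S-Bdc of rat 1 was the lowest of its site as well, at 6.87, and without rat 1 the difference of Tgfb2 was -0.87.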

How the results depend on the processing

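All 8 genes kept the direction of their difference in all 13 alternatives. Of the members, 2 were called higher in S-Bdc as reported. That number was 1 with median scaling, 1 with no replicate block, 0 without normalisation, 0 for the processed intensities and 0 by the paired t-test after adjustment. Without 1 rat in turn it was 0 to 2. The number called lower, 5 as reported, was 1 in the deposited processed intensities (Tgfb3, adjusted p = 0.0442) and 0 by the paired t-test after adjustment. In the processed intensities, Tgfb1, Tgfb2 and Tgfbi had an adjusted p of 0.0535, 0.0502 and 0.057, and 0.906% of all probes were called. At an unadjusted p of 0.05 the paired t-test called 5 members lower and 2 higher, against 15.7% of all probes, and after adjustment 0.0133%. Without 1 rat in turn 5 members remained lower. The call of Ltbp2 was also lost with no normalisation (adjusted p = 0.11).

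Of the distinct pathway genes, 9 were called higher and 8 lower as reported. The numbers were 5 higher and 4 lower with no normalisation, 1 and 0 in the deposited processed intensities, 0 and 0 by the adjusted paired t-test (12 and 12 unadjusted), and 5 lower with median scaling. Without 1 rat in turn, 7 to 10 were higher and 4 to 12 lower, with 4 without rat 3 and 5 without rat 4. Apart from Ltbp1, called as reported and not with no replicate block (adjusted p = 0.0512), the block changed the call of no member. Each member had 1 probe, so no other probe could be compared. At an unadjusted p of 0.05 in the same fit, an alternative chosen after seeing the data, 2 members were higher and 5 lower, against 18.8% of all probes. The cause of these changes was not tested.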
